A study of Homo sapiens with 16 samples.

Results

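A set of 10 long non-coding RNAs was followed here: NORAD, DLEU2, CRNDE, OIP5-AS1, LINC-PINT, EMX2OS, BLACAT1, MALAT1, NEAT1 and TUG1. They were taken as a list, and every probe set (a group of short array probes read as 1 value) that the array's gene table gives to 1 of them alone was used. That rule found 39 probe sets of 54613, for 9 of the 10 RNAs. MALAT1 has 12 of them, DLEU2 7, TUG1 6, LINC-PINT 4, OIP5-AS1 3, NORAD, CRNDE and EMX2OS 2 each, and BLACAT1 1. A further 12 probe sets name one of these RNAs together with another gene and were not read. All 9 probe sets of NEAT1 are among them, each listed with the microRNA gene MIR612, so NEAT1 has no value here. One of these 9, 220983_s_at, also carries a transcript accession that RefSeq gives to SPRY4. The other 3 name DLEU2 together with MIR15A, and 1 of those also with DLEU2L. The RNAs were chosen by name with their measured PP242 differences and polysome and cytosolic levels on these same arrays known, so their levels and treatment differences are given as a description, with standard errors and without tests of their own.

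The cells were MIA PaCa-2, an established human pancreatic cancer line, and all 16 arrays come from it. Cells received either 2.5 µM PP242, an inhibitor of the kinase mTOR, or the solvent DMSO (vehicle), in both cases for 12 hours. Cytosolic RNA was extracted, and part of it was spread on a sucrose gradient of 10% to 50%, from which fractions with more than 3 ribosomes per RNA were pooled as polysome RNA. The resulting groups are cytosolic vehicle, polysome vehicle, cytosolic PP242 and polysome PP242, with 4 arrays each, numbered 1 to 4. The labels name 1 line and do not say whether the numbers are separate cultures, so spreads may be partly technical. PP242 blocks mTOR in both of its complexes, so the groups do not separate the complexes.

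A long non-coding RNA is transcribed and often spliced like a messenger RNA but is not known for encoding a protein. Some, such as MALAT1 in nuclear speckles and NEAT1 in paraspeckles, stay largely in the nucleus, and others, such as NORAD, act in the cytoplasm. An RNA of this class can still sediment with polysomes, because ribosomes may engage short reading frames in it or because it binds translated messengers. The kinase mTOR drives cap-dependent translation and cell growth, and its inhibition changes which RNAs ribosomes carry. RefSeq classes NORAD, DLEU2, CRNDE, OIP5-AS1, LINC-PINT, MALAT1 and NEAT1 as lncRNA and EMX2OS as antisense RNA. In the same table TUG1 and BLACAT1 stand as protein-coding genes.

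Promoter windows of RefSeq (build GRCh38.p14, from 250 bases before to 50 bases after a start site) were found for 7 of the 10 RNAs, 12 windows in all. They are shown because CACGTG, the E-box bound by MYC and by TFEB, a factor that mTOR phosphorylates, occurs in 5 of these 12 windows, each of a different RNA. The site reads the same on both strands. It lies in 7.26% of 35116 windows of the same length. Capitals mark CACGTG, and each sequence runs 5′ to 3′ on the strand of its gene. NORAD is read at chr20:36051081-36051110 (minus strand), where the site begins at -138 from the start. OIP5-AS1 is read at chr15:41283740-41283767 (plus strand) and LINC-PINT at chr7:130913375-130913404 (minus strand, 1 of 4 windows). DLEU2 is read at chr13:50125754-50125783 (minus strand, 1 of 2 windows) and TUG1 at chr22:30969176-30969205 (plus strand).
NORAD: gggccctaacccCACGTGaccacaccccat
OIP5-AS1: actatcttacCACGTGgtacagcttcta
LINC-PINT: ggggtcagaaggCACGTGgctgccatctca
DLEU2: ttcccgggcgggCACGTGacggggttggca
TUG1: tcccgcccctgtCACGTGacagcgtgcgcc
The windows of MALAT1 and CRNDE hold no CACGTG. The TATA box letters TATAAA occur in 11.5% of windows, and among these RNAs at -33 from 1 of the 2 DLEU2 starts and at -30 from 1 of the 2 MALAT1 starts. The E2F-type letters TTTCCCGC (1.63% of windows) and a terminal oligopyrimidine start (4.07%) occur in none of the 12. A match of letters is a description of the window only.

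DLEU2 also hosts microRNAs, which are shown because the array's gene table names MIR15A beside DLEU2 on the probe sets left out. Their mature forms (RefSeq, GRCh38.p14) lie inside the bounds of the DLEU2 gene (chr13:49982549-50125541), at chr13:50049167-50049188 and chr13:50049027-50049048 on the minus strand. Capitals mark the seed, bases 2 to 8, which is the same in both.
hsa-miR-15a-5p: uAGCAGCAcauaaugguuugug
hsa-miR-16-5p: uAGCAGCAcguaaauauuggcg
Levels of the microRNAs themselves were not analysed here.

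Values are log2 RMA signals as deposited, so a difference of 1 is a doubling. Signals of different probe sets cannot be set against each other, and only differences within a probe set are read. A probe set is called low where its group mean lies under the median of all probe sets in all 4 groups. Of the 39, 13 are low: 6 of DLEU2, 3 of MALAT1, 2 of LINC-PINT and 1 each of EMX2OS and TUG1. The median of an array lies at 5 to 5.05 for cytosolic RNA but at 4.57 to 4.63 for polysome RNA, so each pool sits on its own scale. The cytosolic PP242 arrays vary most, with a median SD of 0.243 over probe sets, where the other groups had 0.127 to 0.158. Arrays 2 and 4 of that group got the lowest array weights (0.386 and 0.278), and for probe sets given array by array, a difference that moves by over 1.5 times without them is also given without them. Of 9 markers of the line 2 were low, E-cadherin CDH1 and EPCAM, while KRT8, KRT18 and vimentin (VIM) had group means above 11.4. The mean over the 9 markers ranged from 8.26 to 8.4 in cytosolic vehicle and from 8.73 to 9.21 after PP242. In polysome RNA it ranged from 8.46 to 8.58 and from 8.86 to 8.94. Of 8 fibroblast markers 6 were above the low limit, led by the collagen COL1A2 (group means 10.96 to 12.21). Their mean ranged from 6 to 6.2 in cytosolic vehicle and from 5.77 to 5.96 after PP242, and from 6.18 to 6.31 and 5.88 to 6 in polysome RNA. The part of these shifts in the differences below was not tested. Leukocyte, endothelial and normal pancreas markers were low for 3 of 7, 3 of 6 and 5 of 7 genes.

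PP242 on polysomes gave differences on both sides of 0 for these RNAs, from -0.73 for DLEU2 to 1.63 for BLACAT1. Of the 39 probe sets 28 had a difference above 0, and their median was 0.28, where the median of all 54613 was -0.0025. By limma with Benjamini-Hochberg adjustment over all probe sets (adjusted p under 0.05), 6 of the 39 passed, where 8.2% of all probe sets did. The 4 that were higher are both NORAD probe sets, BLACAT1 and 1 of TUG1 (4.11% of all probe sets were higher), and the 2 that were lower are from DLEU2 and CRNDE (4.09% of all). With the replicate number as a block 13 of the 39 passed, 10 higher and 3 lower, where 13.8%, 7.32% and 6.47% of all probe sets did. In the cytosol 5 of 39 passed, where 10.1% of all did: BLACAT1 was higher (4.75% of all), and 1 of DLEU2, 2 of CRNDE and 1 of OIP5-AS1 were lower (5.37% of all). With the block 10 passed there, 6 higher and 4 lower, where 18%, 9.71% and 8.31% of all did. The 2 treatment groups did not overlap on polysomes for 8 probe sets (14.6% of all), 6 higher (7.21% of all) and 2 lower (7.4%). In the cytosol they did not overlap for 8 (13.7% of all), 4 higher (7.14%) and 4 lower (6.6%). The RNAs were listed with these contrasts in view, so nothing is read from these counts. In bulk RNA a change in the number of cells that hold an RNA and a change per cell cannot be told apart.

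**Figure D1:**
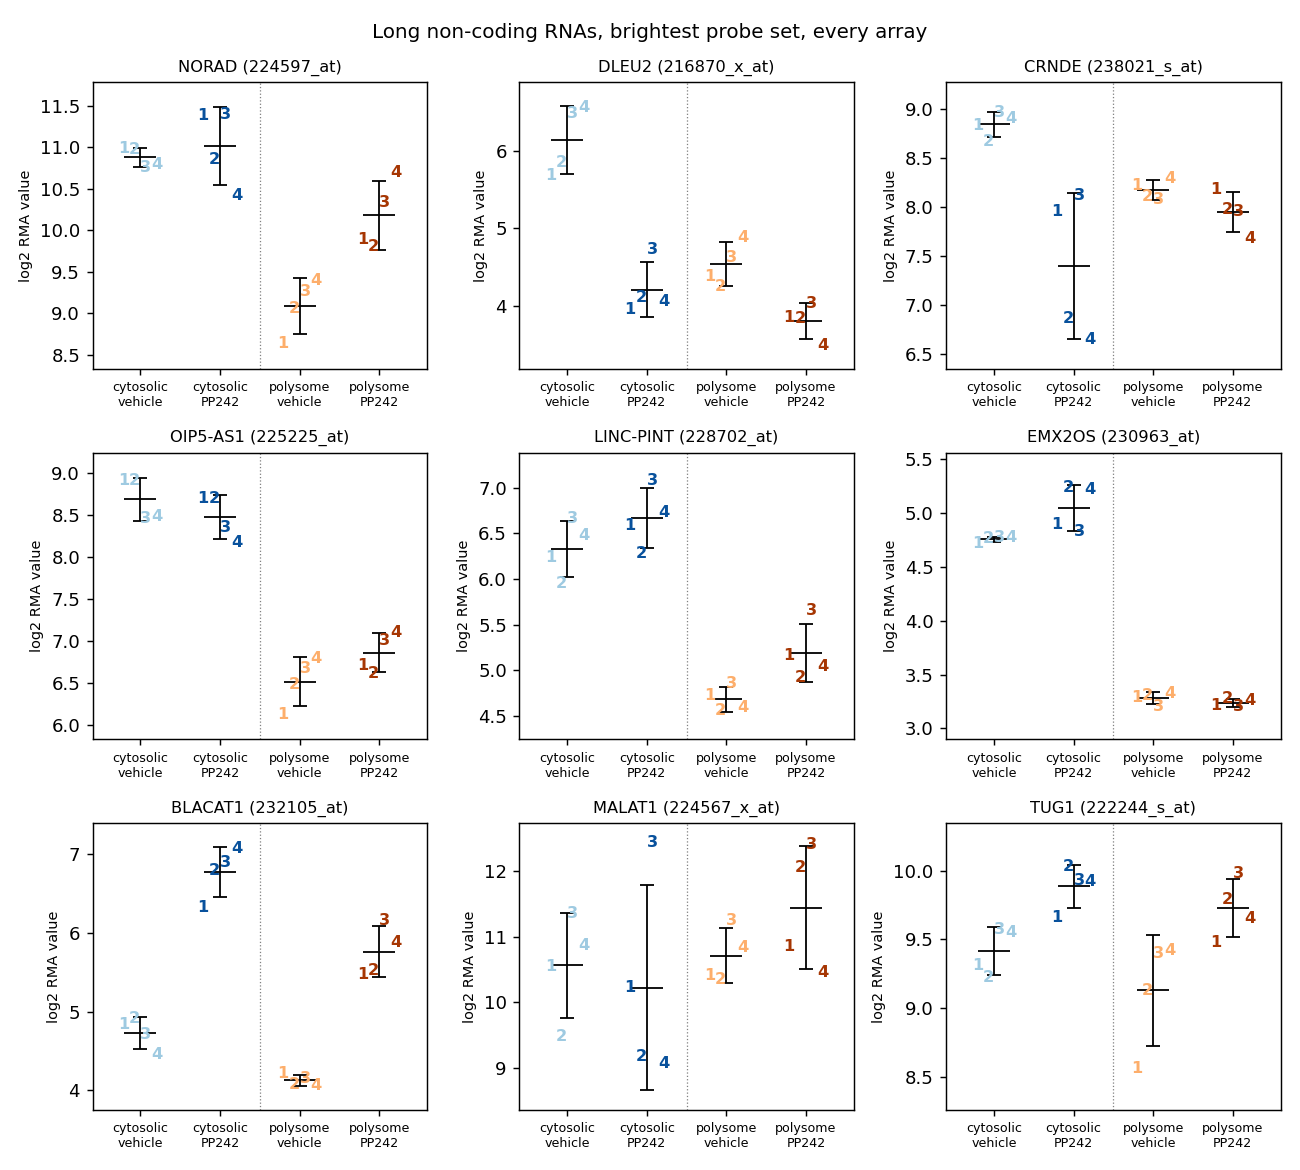
Log2 RMA value of the brightest probe set of each of 9 RNAs on every array; digits are the replicate numbers, the long tick is the mean of 4 arrays and the bars are 1 SD. Polysome PP242 arrays sit above polysome vehicle arrays for NORAD and BLACAT1, cytosolic PP242 arrays sit below cytosolic vehicle for DLEU2 and CRNDE, and MALAT1 spreads most.

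NORAD, an abundant cytoplasmic RNA that holds many binding sites for the Pumilio proteins and is known for guarding chromosome stability, stood higher on polysomes after PP242, and its cytosolic differences did not pass. The test of the polysome against the cytosolic difference did not pass for either NORAD probe set. NORAD 224597_at read 8.63, 9.06, 9.26 and 9.4 on the polysome vehicle arrays and 9.89, 9.8, 10.34 and 10.69 on the polysome PP242 arrays. All PP242 arrays lie above all vehicle arrays. The difference was 1.09 ± 0.22 (SE, n = 4 per group), a fold of 2.13, and it was 1.26, 0.74, 1.08 and 1.29 within replicate numbers 1 to 4. In the cytosol the same probe set read 10.99, 10.97, 10.76 and 10.79 in vehicle and 11.38, 10.85, 11.4 and 10.42 after PP242. These groups overlap, and their difference was 0.14 ± 0.22. Without cytosolic PP242 arrays 2 and 4 it was 0.51 ± 0.23.

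The second NORAD probe set, 1558028_x_at, showed the same order at a lower signal. It read 4.18, 4.6, 4.74 and 4.81 on polysomes in vehicle and 5.12, 6.03, 6.35 and 5.92 after PP242, with no overlap and a difference of 1.27 ± 0.36. Its cytosolic difference was -0.34 ± 0.36, and 0.27 ± 0.34 without arrays 2 and 4. Over 16 arrays, after centring on each pool's mean, the NORAD probe sets correlated at r = 0.83. The polysome call of 1558028_x_at is lost without replicate number 2 or 3 and with numbers 3 and 4 alone. It is also lost with quantile normalization over all arrays (1.18 ± 0.39). The polysome call of 224597_at is lost with numbers 3 and 4 alone (1.19 ± 0.28). The suffix x of 1558028_x_at marks probes that the array's maker lists as matching other sequences as well.

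Polysome minus cytosolic level is called loading here. For 224597_at it was -1.79 ± 0.22 in vehicle and -0.83 ± 0.22 after PP242, where the median of all probe sets was -0.21 and -0.24. For 1558028_x_at it was -2.71 and -1.11, and -1.71 after PP242 without cytosolic arrays 2 and 4. The change of loading, which is the polysome difference minus the cytosolic one, was 0.96 ± 0.32 and 1.61 ± 0.51 for the 2 probe sets, and neither passed by limma, with or without the replicate block. Without cytosolic PP242 arrays 2 and 4 these were 0.58 ± 0.29 and 1.0 ± 0.44. Both loadings of both probe sets stay below 0 when all arrays are quantile normalized, cyclic loess normalized or centred on their median together.

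Of 4 measured genes that act with NORAD, 0 passed in either pool by limma, and at an unadjusted p under 0.05 there were 1 on polysomes and 2 in the cytosol. PUM2, one of the 2 Pumilio repressors, had 0.15 ± 0.19 on polysomes and -0.54 ± 0.19 in the cytosol (adjusted p = 0.0875). KHDRBS1, which encodes the RNA-binding protein SAM68, had -0.0025 ± 0.11 on polysomes. SAFB2 and SAFB had -0.285 ± 0.13 and -0.28 ± 0.14 there.

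OIP5-AS1, known as Cyrano, carries a long conserved site for miR-7 and is known for triggering the decay of that microRNA. Its 3 probe sets had loadings in vehicle of -2.17, -1.31 and -1.66, all below the median of all probe sets. OIP5-AS1 225225_at read 8.91, 8.91, 8.46 and 8.48 in cytosolic vehicle against 6.13, 6.48, 6.67 and 6.79 on polysome vehicle arrays. These groups lie far apart on the deposited scales, and the loading remained between -2.17 and -1.77 under the 3 joint normalizations and as deposited. After PP242 its polysome values were 6.71, 6.62, 7.01 and 7.1, which overlap with vehicle, and the difference was 0.34 ± 0.17. The cytosolic difference was -0.21 ± 0.17, so the 2 pools differ in sign at this probe set for all 4 replicate numbers.

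The 3 OIP5-AS1 probe sets did not move together. OIP5-AS1 225332_at had 0.39 ± 0.16 on polysomes and -0.07 ± 0.16 in the cytosol, close to 225225_at (r = 0.81 over 16 pool-centred arrays). OIP5-AS1 231808_at fell in the cytosol by 0.96 ± 0.13 on the log2 scale and had -0.38 ± 0.13 on polysomes. It read 7.05, 7.22, 7.11 and 7.1 in cytosolic vehicle and 6.06, 6.45, 5.88 and 6.27 after PP242, with no overlap. With the replicate block its polysome difference also passes. Its lowest correlation with another OIP5-AS1 probe set was r = -0.02. The array table gives no positions within the transcript, so which part each probe set reads was not analysed here.

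OIP5, the coding neighbour that OIP5-AS1 is named for and a centromere protein, fell in both pools, by 1.54 ± 0.14 on polysomes (adjusted p = 2.23e-06, limma) and by 1.63 ± 0.14 in the cytosol. NUSAP1, a spindle protein encoded nearby, fell by 1.21 ± 0.16 on polysomes. On polysomes, 16 coding neighbours of the listed RNAs were measured, and 1 of them rose, 2 fell and 13 missed the threshold, with a median of 0.0012. In the cytosol 1 rose, 3 fell and 12 missed it.

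CRNDE, an RNA raised in many tumours and described as a partner of the chromatin complex PRC2, fell in the cytosol. CRNDE 238021_s_at read 8.83, 8.67, 8.97 and 8.91 in cytosolic vehicle and 7.95, 6.86, 8.12 and 6.65 after PP242. The groups do not overlap, and arrays 2 and 4 lie more than 1 unit below 1 and 3. The difference was -1.45 ± 0.25, and -0.81 ± 0.13 without arrays 2 and 4. On polysomes it read 8.22, 8.11, 8.08 and 8.29 in vehicle and 8.18, 7.98, 7.96 and 7.68 after PP242, which overlap, with a difference of -0.23 ± 0.25. Its loading was -0.67 in vehicle and 0.56 after PP242, and the latter was -0.09 without the 2 arrays. The PP242 loading did not pass on the deposited values of all 16 arrays without the block. It passes as higher with the replicate block and with arrays centred on their medians. It also passes without replicate number 3 and with numbers 1 and 2 alone. The change of 1.23 ± 0.35 was 0.59 ± 0.17 without cytosolic PP242 arrays 2 and 4.

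CRNDE 238022_at had like differences in both pools. It fell by 0.69 ± 0.18 in the cytosol, from 7.6, 7.52, 7.5 and 7.5 to 6.79, 7.28, 6.43 and 6.86, with no overlap. On polysomes it fell by 0.62 ± 0.18, from 6.8, 6.95, 6.54 and 6.94 to 6.62, 6.24, 5.77 and 6.12, where array 1 after PP242 overlaps with vehicle. The polysome call is lost when any 1 of the 4 replicate numbers is left out, and the cytosolic call without number 1 or 4. Its change of loading was 0.07 ± 0.25 (0.3 without cytosolic arrays 2 and 4), against 1.23 for the other CRNDE probe set, and they correlated at r = 0.46.

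PRC2 places a repressive methyl mark on histone H3. Its 7 subunits were measured, and on polysomes 4 fell, 1 rose and 2 missed the threshold, with a median of -0.46. EED fell by 1.27 ± 0.1 (adjusted p = 2.77e-07, limma) and the methyltransferase EZH2 by 0.89 ± 0.15, while EZH1, the other methyltransferase, rose by 0.85 ± 0.13 (adjusted p = 3.49e-04). In the cytosol 5 fell and 1 rose. RBBP4, a histone-binding subunit, fell there by 1.14 ± 0.21.

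TUG1, first described as a taurine-upregulated RNA in retina and also tied to PRC2, had 5 probe sets above the low limit, and their differences were not alike. TUG1 222244_s_at read 8.56, 9.13, 9.4 and 9.42 on polysome vehicle arrays and 9.48, 9.79, 9.98 and 9.65 after PP242. The groups do not overlap, and it rose by 0.6 ± 0.17. In the cytosol it read 9.31, 9.22, 9.57 and 9.55 in vehicle and 9.66, 10.03, 9.93 and 9.92 after PP242, also with no overlap, at 0.47 ± 0.17. The polysome call is lost when any 1 of the 4 replicate numbers is left out, and the cytosolic difference passes with the replicate block.

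TUG1 228397_at went another way in the cytosol, at -0.53 ± 0.28, with 0.46 ± 0.28 on polysomes. Its cytosolic PP242 arrays read 6.95, 6.37, 7.36 and 5.63 against 7.08, 6.95, 7.07 and 7.33 in vehicle. Arrays 2 and 4 hold the low values, and without them the cytosolic difference was 0.05 ± 0.22 and the change of loading went from 0.99 to 0.42. TUG1 212725_s_at, 212337_at and 229301_at had polysome differences of 0.39, 0.28 and 0.0025 and cytosolic differences of -0.02, 0.4 and 0.16. Correlations among the 5 TUG1 probe sets ran from r = 0.0058 to r = 0.82. TUG1 230635_at, low in all groups, was the single probe set of the 39 that passed as higher on polysomes than in the cytosol in vehicle (0.44 ± 0.14, with 11.4% of all probe sets higher).

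LINC-PINT, an RNA that p53 induces, had 2 probe sets above the low limit. LINC-PINT 228702_at read 4.73, 4.56, 4.86 and 4.59 on polysome vehicle arrays and 5.16, 4.92, 5.65 and 5.04 after PP242. The groups do not overlap, and the difference of 0.51 ± 0.19 passes with the replicate block only. In the cytosol it was 0.34 ± 0.19, which also passes with the block. Its loading was -1.65 in vehicle and -1.48 after PP242. LINC-PINT 239055_at had -0.11 ± 0.11 on polysomes and 0.15 ± 0.11 in the cytosol, and the pair correlated at r = -0.27.

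DLEU2 runs over the region of chromosome 13 that is often deleted in lymphoid leukaemia, and 6 of its 7 probe sets were low. DLEU2 216870_x_at, the other one, read 5.68, 5.85, 6.47 and 6.55 in cytosolic vehicle and 3.96, 4.11, 4.73 and 4.06 after PP242. No array overlaps, and it fell by 1.92 ± 0.21 on the log2 scale, a fold of 3.79. Without arrays 2 and 4 of cytosolic PP242 the difference was -1.79 ± 0.27. On polysomes it fell by 0.73 ± 0.21, from 4.39, 4.25, 4.63 and 4.89 to 3.86, 3.85, 4.04 and 3.5, again without overlap. That polysome call is lost when any 1 of the 4 replicate numbers is left out.

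The group means of DLEU2 216870_x_at lie under the median of all probe sets after PP242 and, on polysomes, in vehicle as well (4.54, where the median was 4.6). The signal is above that median in cytosolic vehicle alone, so its differences and loadings are not exact sizes. Its loading was -1.6 in vehicle and -0.4 after PP242, a change of 1.2 ± 0.3 that did not pass. The PP242 loading passes as lower with the replicate block only and turns to between 0.01 and 0.04 under the 3 joint normalizations. The 6 low DLEU2 probe sets had polysome differences from -0.2 to 0.06 and cytosolic ones from -0.3 to 0.1. The mean over all 7 DLEU2 probe sets had -0.14 on polysomes and -0.35 in the cytosol, and neither passes. The suffix x of this probe set marks probes that the array's maker lists as matching other sequences as well. Several MALAT1 probe sets, 224567_x_at among them, carry it too. RB1, the retinoblastoma tumour suppressor and a neighbour on chromosome 13, fell in the cytosol by 0.88 ± 0.2 (adjusted p = 0.00840, limma). DLEU1, the neighbouring non-coding RNA, fell there by 0.54 ± 0.15. Of the listed coding neighbours, TRIM13 had 0.25 ± 0.11 in the cytosol and KCNRG, low in all groups, had -0.30 ± 0.13. Neither passed by limma (adjusted p = 0.174 and 0.152).

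BLACAT1, described first in bladder cancer, was the RNA with the highest difference in both pools. BLACAT1 232105_at read 4.22, 4.08, 4.15 and 4.06 on polysome vehicle arrays and 5.47, 5.52, 6.16 and 5.88 after PP242. It rose by 1.63 ± 0.17, a fold of 3.1. In the cytosol it read 4.84, 4.91, 4.71 and 4.46 in vehicle and 6.32, 6.79, 6.89 and 7.07 after PP242, and it rose by 2.04 ± 0.17, a fold of 4.11. No arrays overlap in either pool, and both calls hold in all 19 alternatives run. The vehicle values lie under the array medians, so these folds are not exact sizes. Its loading was -0.6 in vehicle and -1.01 after PP242, a change of -0.41 ± 0.24 that did not pass and was -0.245 ± 0.25 without cytosolic PP242 arrays 2 and 4.

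EMX2OS, transcribed from the strand opposite to the brain patterning gene EMX2, was near the low limit. EMX2OS 230963_at read 4.72, 4.76, 4.77 and 4.77 in cytosolic vehicle and 4.89, 5.24, 4.83 and 5.22 after PP242. The groups do not overlap, with a difference of 0.29 ± 0.1, and the arrays with the higher values are 2 and 4. Without those arrays it was 0.105 ± 0.08. On polysomes all 8 values lay between 3.2 and 3.32, with a difference of -0.04 ± 0.1, and all lie under the medians of the polysome arrays. EMX2 itself was low in all groups, at 0.06 ± 0.09 and 0.26 ± 0.13 read as polysome and cytosolic differences.

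MALAT1, which gathers in nuclear speckles, had the widest spread between arrays of 1 group. MALAT1 224567_x_at read 10.55, 9.47, 11.36 and 10.86 in cytosolic vehicle and 10.22, 9.17, 12.43 and 9.06 after PP242. Array 3 is highest in both groups, and the groups overlap. On polysomes it read 10.4, 10.35, 11.24 and 10.84 in vehicle and 10.85, 12.05, 12.41 and 10.46 after PP242, which overlap as well. The differences were 0.74 ± 0.6 on polysomes and -0.34 ± 0.6 in the cytosol. Without cytosolic PP242 arrays 2 and 4 the cytosolic one was 0.77 ± 0.63.

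All 12 MALAT1 probe sets had a polysome difference of group means above 0, from 0.0075 to 1.15. Within replicate number 4 the differences lay on both sides of 0, from -0.62 for 226675_s_at to 0.27 for 224558_s_at. Of the 12 probe sets 0 passed by limma without the block on polysomes, and 1 had an unadjusted p under 0.05, where 18.3% of all probe sets did. With the replicate block 4 of the 12 passed as higher, where 7.32% of all probe sets did. Cytosolic differences ran from -0.57 to 1.1 with 0 passing, and 2 passing as higher with the block (9.71% of all). In the cytosol 2 had an unadjusted p under 0.05, where 25.1% of all probe sets did. These 12 probe sets read 1 RNA and the same arrays, so their like sign is not 12 observations. Correlations among the 9 above the low limit ran from r = 0.37 to r = 0.97, with a median of 0.81.

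**Figure D2:**
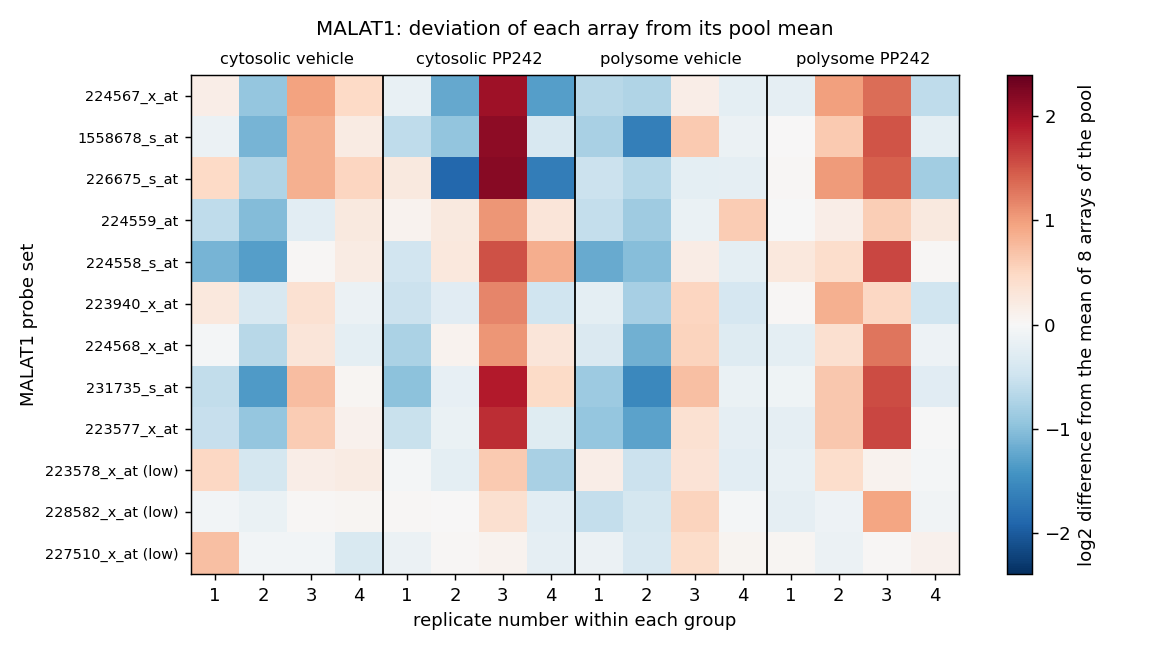
Deviation of every array from the mean of the 8 arrays of its pool, on the log2 scale, for the 12 MALAT1 probe sets (rows) and the 4 replicate numbers of each group (columns). Number 3 after PP242 is the reddest column in the cytosol, with a highest deviation of 2.18, and number 2 in vehicle is blue in most rows.

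The MALAT1 probe sets also split by loading. In vehicle 224567_x_at, 1558678_s_at, 226675_s_at, 231735_s_at and 223577_x_at lay between -0.19 and 0.38, and the first 3 change sign under joint normalization. The probe sets 224559_at, 224558_s_at, 223940_x_at and 224568_x_at lay between -1.61 and -0.83. After PP242 the first 5 lay between 0.67 and 1.45, and the other 4 between -1.29 and -0.82. Of these 9, 2 passed as lower without the replicate block, and with it the 4 passed as lower and 4 of the first 5 as higher, 1558678_s_at being the exception. Of all probe sets 41.9% were lower without the block, and 46.2% were lower and 13.7% higher with it. Without cytosolic PP242 arrays 2 and 4 the first 5 lay between -0.05 and 0.55. MALAT1 226675_s_at had the largest of these, 1.45 ± 0.68, where the cytosolic PP242 arrays read 8.94, 6.81, 10.88 and 7.03. Without cytosolic arrays 2 and 4 its change of loading went from 1.39 to -0.11.

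**Figure D3:**
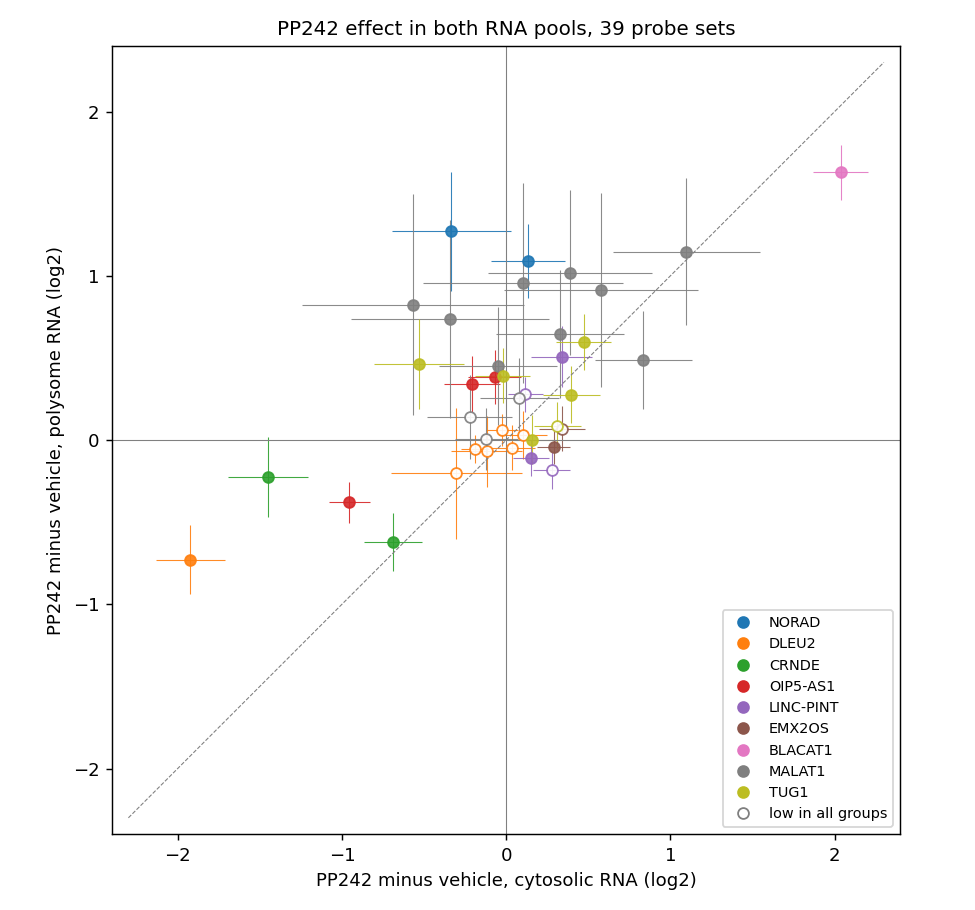
PP242 minus vehicle in cytosolic RNA (x axis) and in polysome RNA (y axis), in log2 units, for the 39 probe sets with bars of 1 SE; open circles are low in all groups and the dashed line marks equal differences. BLACAT1 lies alone at the upper right, NORAD sits near 1 on the y axis and near 0 on the x axis, and DLEU2, CRNDE and 1 OIP5-AS1 probe set lie to the left.

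The change of loading compares the pools within each treatment. Of the 39 probe sets 0 passed by limma (0 with the replicate block), and 1 of all 54613 did (0.00183%). At an unadjusted p under 0.05 the count was 9 of 39, 7 of them above 0, where 8.27% of all probe sets had such a p. The median change was 0.16, against -0.04 over all probe sets. The brightest probe sets of 7 of 9 RNAs lay above that median, and those of EMX2OS (-0.33) and BLACAT1 (-0.41) lay below it. Without cytosolic PP242 arrays 2 and 4 these were -0.15 and -0.245, and that of MALAT1 went from 1.08 to -0.03. A difference between the pools is thus not shown for any of these RNAs by this test.

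**Figure D4:**
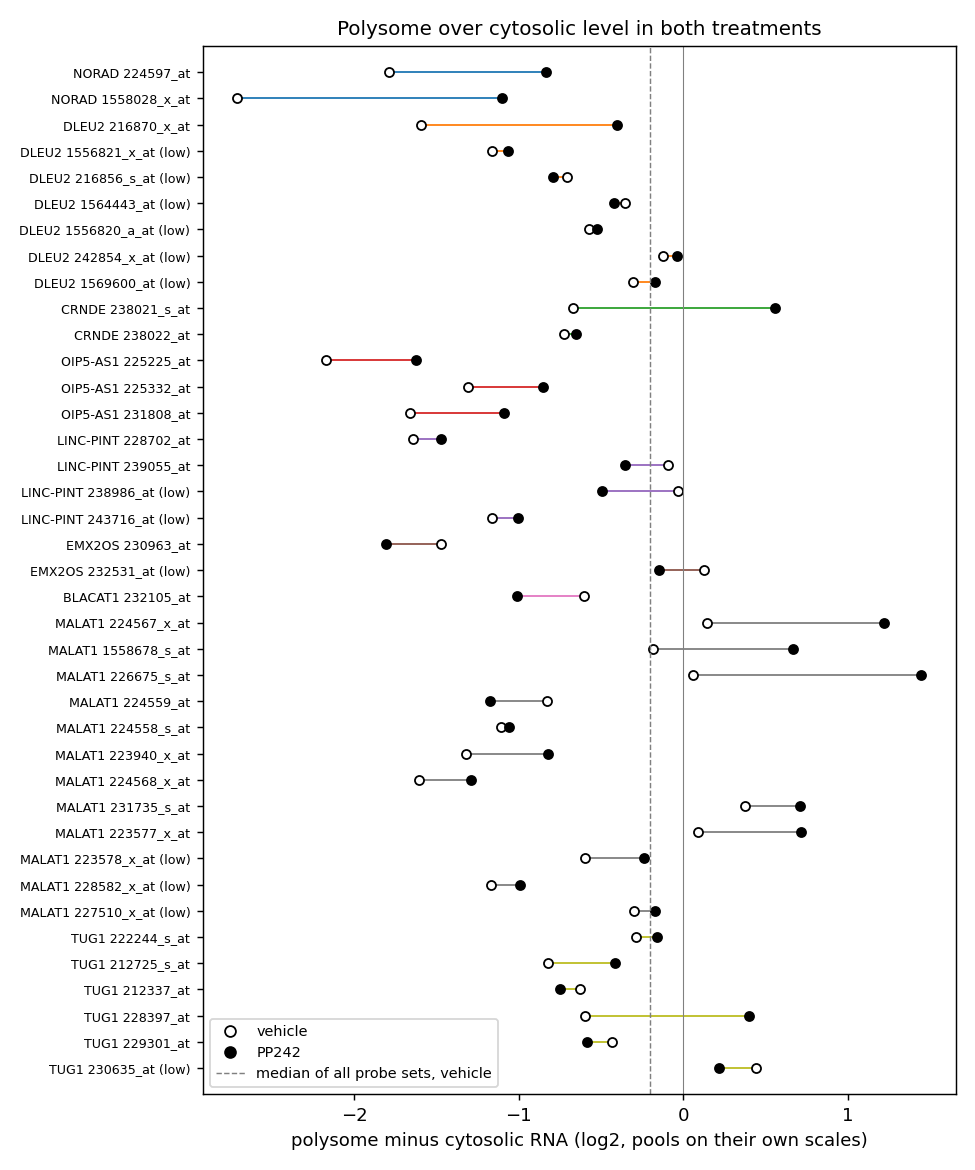
Polysome minus cytosolic level in log2 units for each of the 39 probe sets in vehicle (open) and after PP242 (filled); the dashed line is the median of all probe sets in vehicle. Among those that move to the right after PP242 are NORAD, CRNDE 238021_s_at, DLEU2 216870_x_at, MALAT1 226675_s_at, MALAT1 224567_x_at and TUG1 228397_at. LINC-PINT 238986_at, BLACAT1 and EMX2OS are among those that move to the left, and none of these changes passed.

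Loadings over the list are a description, since the RNAs were listed with their levels in both pools known, and nothing is read from the counts. In vehicle the median loading of the 39 was -0.63, against -0.21 for all probe sets, and 29 of the 39 lay below the median of all. With all arrays normalized together the number below the median of all was 32 (quantile), 32 (cyclic loess) and 29 (median-centred). By limma 25 of the 39 passed in vehicle (48.6% of all did), 24 of them lower on polysomes than in the cytosol and 1 higher, where 37.3% and 11.4% of all probe sets were. After PP242 the median was -0.52 against -0.24, and 25 lay below the median of all under each scaling. Then 21 of 39 passed by limma (53.4% of all did), all of them lower and 0 higher, where 41.9% and 11.5% of all were. With the block 25 were lower and 5 higher, where 46.2% and 13.7% of all were (59.9% in either direction). At an unadjusted p under 0.05 there were 26 of the 39 after PP242, 2 of them higher, where 58.8% of all probe sets had such a p. The sign of the loading changes with the scaling for 10 of the 39 in vehicle and for 8 after PP242, MALAT1 224567_x_at and TUG1 222244_s_at among them. Centring arrays on their medians moves the median loading of all probe sets from -0.21 to 0.2, and the share of calls that are higher from 23.4% to 74.7%.

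Ordered by loading in vehicle over their brightest probe sets, the RNAs above the median of all probe sets in both vehicle groups run from OIP5-AS1 (-2.17 ± 0.17), NORAD (-1.79 ± 0.22) and LINC-PINT (-1.65 ± 0.19) to CRNDE (-0.67 ± 0.25), TUG1 (-0.29 ± 0.17) and MALAT1 (0.15 ± 0.6). Neighbours in this order differ by less than the sum of their SEs, except LINC-PINT and CRNDE. DLEU2, EMX2OS and BLACAT1 have no place in it. DLEU2 lay under the median on polysomes, and EMX2OS (4.76 in the cytosol and 3.28 on polysomes) and BLACAT1 (4.73 and 4.13) lay under it in both vehicle groups, where the medians were 5.01 and 4.6. The order reads differences within a probe set, not levels between RNAs. It rests on the brightest probe set of each RNA alone, and other probe sets above the low limit would change it. In vehicle NORAD 1558028_x_at had -2.71, LINC-PINT 239055_at -0.09, TUG1 212725_s_at -0.825 and MALAT1 224568_x_at -1.61.

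Other non-coding RNAs were taken from lists. Among 9 measured nuclear and architectural RNAs, 1 rose on polysomes and 8 missed the threshold, with a median of 0.0325. It is JPX, an activator of X inactivation, at 1.51 ± 0.34 (adjusted p = 0.00915, limma), and its loading was -1.86 in vehicle and -0.82 after PP242. In the cytosol 0 of 9 passed by limma, and 0 did at an unadjusted p under 0.05. Among 24 measured cytoplasmic or multi-compartment RNAs, 3 passed as higher on polysomes, 1 as lower, and 20 missed the threshold. EPB41L4A-AS1 rose by 0.9 ± 0.2, LINC00467 by 0.75 ± 0.18 and TINCR, which acts in epidermal differentiation, by 0.67 ± 0.17, while DANCR, which holds back differentiation, fell by 0.78 ± 0.16. In the cytosol 6 rose and 1 fell, with a median of 0.15. Of 8 measured paraspeckle proteins, the partners of NEAT1, 0 passed on polysomes by limma (2 at an unadjusted p under 0.05), and NUDT21 fell in the cytosol by 1.58 ± 0.28.

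For each RNA the genes most alike in pattern were sought among 13667 genes above the low limit, by Pearson's r over 16 arrays after centring on the mean of each pool. NORAD was nearest to MCTP1 (r = 0.91). DLEU2 was nearest to DDIAS (0.96), CRNDE to NEK4 (0.97), LINC-PINT to ZNF789 (0.94) and EMX2OS to UNC119 (0.95). BLACAT1 had the highest value, with TTC17 at 0.98. OIP5-AS1 had the lowest, with FEM1B at 0.83, and MALAT1 and TUG1 were nearest to MINDY1 (0.91) and KAT6A (0.95). All genes share the 16 arrays, the treatment and the replicate numbers, so r describes likeness and no p is given.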

How the data were processed

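Per the submitters' processing notes the arrays were summarized with RMA. The authors deposited log2 values; the RMA version, its background settings and whether pools were normalized jointly are not given in sources used here. The pools look normalized apart, so a loss common to all RNAs of a pool is not visible. Probe sets were named with the array's gene table, in which 41091 list 1 gene and 1801 several; 11721 are not in it. Gene classes and sequences are from RefSeq (GRCh38.p14). limma 3.58.1 in R 4.3.3 (lmFit, eBayes with trend) fitted 4 group means over 16 arrays and 54613 probe sets; p-values are two-sided. The limma fit was tested on simulated data for the polysome difference alone, and other steps were not tested that way. The simulated arrays were drawn independently with the same spread in every group. They thus lack the pairing of numbers and the wider spread of the cytosolic PP242 arrays. The RNAs and gene lists were chosen with earlier results of these data known. List genes are named by smallest p, up to 4, apart from cell markers and from neighbours or partners named beside their RNA. Likeness names the nearest gene of each RNA. Deviations of arrays with the same number correlated above 0.1 in 16 of 16 pairs of compared groups (0.16 to 0.617), so the numbers pair samples. Alternatives covered blocking, scaling, probe set choice, dim probe sets, weights and left-out arrays. Leaving out cytosolic PP242 arrays 2 and 4 together was chosen after seeing the data.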

Additional observations from a re-analysis of the deposited data

Results flagged for a closer look

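In 6 of 156 groups of 4 arrays, 1 array stood apart from the other 3 by a gap above Dixon's 95% critical value. Chance gives such a gap in about 1 of 20 groups. Array 3 of cytosolic PP242 is the one in 3 of them: MALAT1 223940_x_at read 8.88 there against 7.2 to 7.45 on the others, MALAT1 223577_x_at read 7.83 against 5.52 to 5.89, and OIP5-AS1 225332_at read 7.06 against 7.33 to 7.37. MALAT1 228582_x_at, low in all groups, read 4.1 on array 3 of polysome PP242 against 2.93 to 3.07. LINC-PINT 239055_at read 5.09 on array 3 of cytosolic vehicle against 5.25 to 5.27. TUG1 228397_at read 6.12 on array 1 of polysome vehicle against 6.61 to 6.67.

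OIP5-AS1 225225_at was higher after PP242 on polysomes and lower in the cytosol for all 4 replicate numbers, and the 2 differences lie 0.55 apart. The test of that difference did not pass, with 0 of 39 probe sets passing by limma. At an unadjusted p under 0.05 9 did, where 8.27% of all probe sets did.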

How the results depend on the processing

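Of all values recomputed for the 39 probe sets, 3070 moved by less than 1 SD between replicates, 227 by more, and 4 turned a called loading: LINC-PINT 239055_at after PP242 from -0.36 to 0.027 (quantile), 0.060 (cyclic loess) and 0.058 (median-centred), and DLEU2 1569600_at in vehicle from -0.31 to 0.098 (median-centred). With the replicate block 7529 probe sets passed on polysomes (13 of the listed) and 9844 in the cytosol (10 listed), against 4480 and 5529 without it. The block changed no call of the change of loading among the listed. With 1 probe set per gene (19775 genes, 9 listed) 2644 passed on polysomes, 3253 in the cytosol, 0 for the change of loading, 10431 for loading in vehicle (7 listed) and 10703 after PP242 (5 listed). With the mean per gene these were 2558 (3 listed), 3165, 10605 (8 listed) and 11154 (6 listed). The fewer tests follow from the construction. The change of loading had 0 calls, instead of 1, with quantile normalization, with array weights, without cytosolic PP242 arrays 2 and 4, and with numbers 1 and 2 or 3 and 4 alone. With dim probe sets left out (30494 kept) loading had 17372 and 17330 calls. With the 8 cytosolic arrays alone 3045 passed, and without arrays 2 and 4 of cytosolic PP242 3132. With numbers 3 and 4 alone 1370 passed on polysomes (1 listed), 1444 in the cytosol (3 listed), 16250 for loading in vehicle (13 listed) and 18304 after PP242; fewer samples enter. Leaving out 1 replicate number gave 2407 to 2891 on polysomes (2 to 3 listed). Leaving out only cytosolic PP242 array 2 or 4, which removes no polysome array, gave 4703 and 5067 there (7 and 6 listed). Over both kinds of omission there were 2358 to 5555 in the cytosol (5 to 5 listed) and 0 to 0 for the change of loading. Loading in vehicle had 21651 to 28155 (18 to 27 listed) and loading after PP242 had 23505 to 27766 (17 to 27 listed). Centring arrays on their medians moved the share of cytosolic calls that are higher from 46.9% to 38.8%. Apart from left-out samples and probe set choice, the cause was not tested. The number of arrays, 4 per group, limits the precision, and 13 of 39 probe sets lie low on the scale.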

Other observations

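Long non-coding RNAs as a class were set beside coding genes after the data had been seen, with 1 probe set per gene, low ones and the listed RNAs left out. For 898 genes that RefSeq classes as lncRNA the median loading in vehicle was -0.42 (quartiles -0.76 and -0.11), and for 12489 coding genes it was -0.08 (quartiles -0.48 and 0.33). After PP242 the medians were -0.41 and -0.07. With low genes kept (2651 lncRNA and 16518 coding genes) the medians were -0.28 and -0.13 in vehicle, and -0.31 and -0.15 after PP242. A gene is kept as not low through 1 group alone, which can be a cytosolic one, so the filter can bear on loading. On polysomes 71 of the 898 lncRNA genes were higher after PP242 and 5 lower, and of the coding genes 975 were higher and 1113 lower. In the cytosol the counts were 76 and 11 for lncRNA genes and 1141 and 1323 for coding genes. Of all measured lncRNA genes 66.1% were low in all groups, against 24.4% of coding genes. These are values of different probe sets on the deposited scales, and the difference between the classes was not tested.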
